A study of Homo sapiens with 14 samples.

Results

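Switching on the transcription factor Snai1 with 4-hydroxytamoxifen (4-OHT) was followed in a human gastric carcinoma line on 3 of the 14 arrays of the series. The 3 arrays were the Snai1ER line left without 4-OHT for 4 days and the same line exposed to 20 ng/ml 4-OHT for 2 days or 4 days, all without knockdown. The members were chosen by these array labels, and each gene was described by its log2 difference from the untreated Snai1ER array at each time. The labels name the parental line MKN28 and the line with the transgene MKN28snai1ER, whereas the paper names it MKN74; these names are used for closely related or cross-contaminated lines. The other 11 arrays hold 1 untreated parental array of day 2, 8 parental arrays under hypoxia (1% oxygen) or TGFb (10 ng/ml) with and without knockdown, and 2 arrays of the Snai1ER line labelled with an ANGPTL4 knockdown (shANGPTL4) under 4-OHT for 2 and 4 days. All cells were seeded sparsely so that separate colonies formed, and whether the Snai1ER line is 1 clone is not given in the sources used here.

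Each condition had 1 array, so every difference below is between single arrays, with no test and no error, and genes are called by size alone. The day 2 array with 4-OHT was compared with an untreated array of day 4. Neither the parental line with 4-OHT nor the knockdown line without 4-OHT was on an array analysed here, so a response to Snai1 and a response to 4-OHT itself cannot be told apart. Median levels of the 3 arrays lay between 5.997 and 6.042 (log2) over all probe sets. The 2 parental TGFb arrays without knockdown had lower medians, 5.19 and 5.23, against at most 6.16 on the other 12, and they widen the lower end of the parental ranges given below. The 4-OHT day 4 array stood apart: its SD from the mean of the other arrays was 0.61, against 0.37 for the untreated and 0.38 for the day 2 array, and only the hypoxia day 1 array with knockdown was higher, at 0.70. Every result of day 4 alone rests on that array, whose part in them was not tested. Of the markers of a gastric epithelial line, 8 of 9 measured reached the level needed to be kept, against 1 of 8 fibroblast, 0 of 6 endothelial and 2 of 6 leukocyte markers. A gene was kept when its mean level over the 14 arrays reached log2 5.90, which left 11050 of 18417 genes.

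Snai1, encoded by SNAI1, is a zinc finger repressor that binds E-boxes, short DNA motifs reading CACCTG or CAGGTG, and silences epithelial genes such as CDH1, which encodes E-cadherin. It is known as a driver of epithelial-mesenchymal transition (EMT), in which cells loosen their junctions and take on contractile and migratory features. In Snai1ER the protein is joined to a part of the estrogen receptor, which keeps it inactive until 4-OHT binds, so activation alters the protein and need not alter the transcript.

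The SNAI1 transcript was at 6.01 (log2) on the untreated parental array and at 9.58 on the untreated Snai1ER array. It was at 9.62 on day 2 and 9.55 on day 4 of 4-OHT, while the 9 parental arrays ranged from 4.76 to 6.19. All 3 Snai1ER arrays thus lay far above every parental array, and 4-OHT moved the transcript by 0.04 and -0.03. Transgene and endogenous transcript are not separated by this probe set. ESR1, the estrogen receptor gene, and ANGPTL4 stayed below the level filter, at 5.08, 5.06 and 5.32 and at 5.27, 5.43 and 5.05 in the order untreated, day 2, day 4. On the 2 arrays labelled with its knockdown ANGPTL4 was at 5.35 and 5.28, no lower than on the untreated array. With ANGPTL4 below the level filter on these arrays and on those without knockdown, the knockdown could not be judged. The 2 arrays are named by their label.

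Of the 11050 genes, 254 (2.3%) were at least 1.5-fold higher on 4-OHT at both days and 131 (1.19%) were at least 1.5-fold lower at both days, 385 (3.48%) in either direction. These shares are the background against which the members of each gene group are read. The median of the 254 differences was 0.83 on day 2 and 1.16 on day 4, and 77.6% of them were larger on day 4. The 131 lower genes had medians of -0.81 and -1.20, and 80.9% were larger on day 4. Differences were wider on day 4 in all genes: their SD over the 11050 genes was 0.30 on day 2 and 0.55 on day 4. On day 2 taken alone, 424 genes (3.84%) were higher and 200 (1.81%) lower, and on day 4 alone 1021 (9.24%) were higher and 1267 (11.5%) lower. At 2-fold on both days, 62 genes (0.561%) remained higher and 30 (0.271%) lower.

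**Figure D1:**
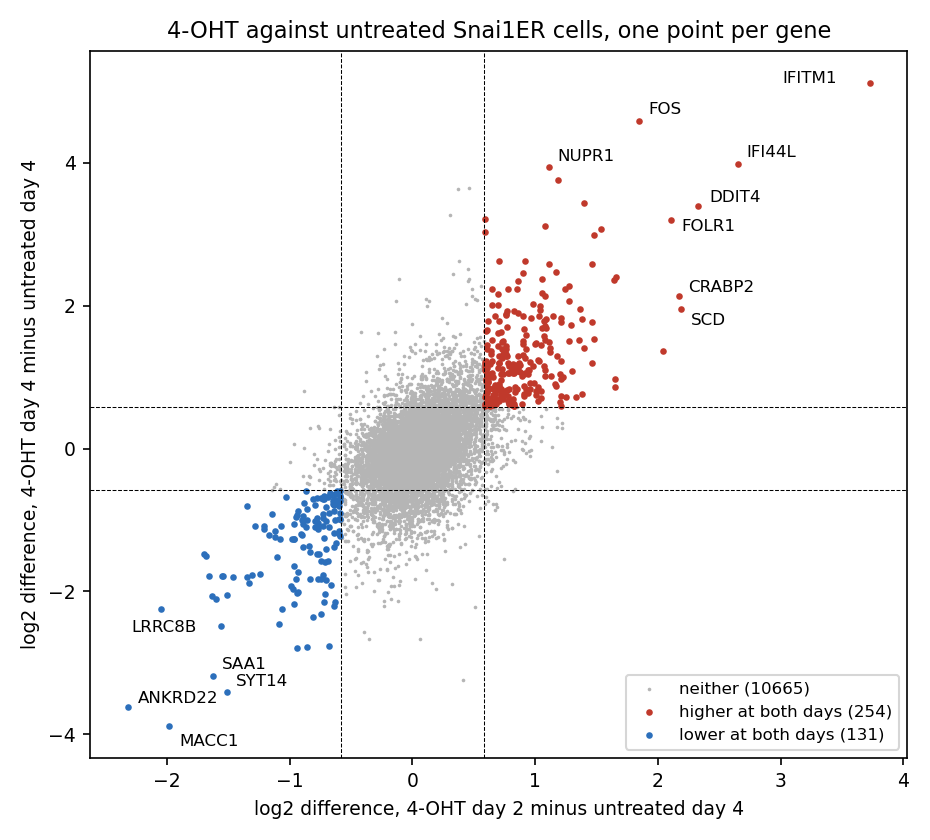
Log2 difference from the untreated Snai1ER array on day 2 (horizontal axis) and day 4 (vertical axis) of 4-OHT, 1 point per kept gene, with dashed lines at 1.5-fold. The 254 genes higher at both days (red) and the 131 lower at both days (blue) spread further along the day 4 axis, with IFITM1 at 3.73 and 5.12 and MACC1 at -1.98 and -3.88.

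Among junction genes some passed the rule and the best known Snai1 target did not. CDH1 was at 10.70 without 4-OHT, 10.93 on day 2 and 10.84 on day 4, inside the 10.26 to 11.33 of the 9 parental arrays. EPCAM, an epithelial adhesion protein, was at 11.91, 11.59 and 11.56, and the keratins KRT8 and KRT18 differed by -0.43 and -0.59 and by -0.27 and -0.23. None of these passed the rule. Of the tight junction and polarity list, 27 genes were kept, of which 3 (11.1%) were lower and 1 (3.7%) was higher.

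CLDN1, a strand-forming claudin of the tight junction, was at 10.11 without 4-OHT, 8.77 on day 2 and 9.32 on day 4. Both 4-OHT values lay below the lowest parental array, at 9.65. CLDN3 and CLDN4 did not pass the rule, at -0.24 and -0.13 and at -0.20 and 0.03. CLDN7 was 0.96 lower on day 2, at 8.33 against 9.28, but was at 9.35 on day 4. ST14, the membrane protease matriptase that acts in epithelial barrier formation, was at 8.88 without 4-OHT and was 2.51-fold and 3.68-fold lower with it, again below all parental arrays (7.94 to 9.47). The membrane traffic protein MAL2 was at 12.27, 11.65 and 11.66, a 1.53-fold and 1.52-fold lower level that fell short of the rule when each array was centred on its median. PRSS8, the protease prostasin, moved the other way, from 6.80 to 7.64 and 7.90.

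No gene of the 18 kept in the adherens junction and desmosome list passed the rule at both days, although 5 were lower on day 4 alone. Of these, DSP (desmoplakin, which anchors keratin at desmosomes) was at 10.36, 10.37 and 9.73, and DSG2, a desmosomal cadherin, at 10.21, 10.00 and 9.29. AFDN (afadin, an adherens junction adaptor) differed by -0.05 and -1.07. All of these were lower on day 4 alone, with the day 2 array close to the untreated one.

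Among epithelial transcription and splicing factors, GRHL3 was the 1 of 15 kept genes that passed. GRHL3, a grainyhead factor of epithelial barrier programmes, was at 8.48 without 4-OHT and at 7.24 and 6.72 with it, below the parental range of 7.84 to 8.66. Its relative GRHL2 was at 9.41, 9.63 and 8.66. Of the keratins and epithelial cytoskeleton list 1 of 11 was lower, KRT80 at 6.61, 6.01 and 5.81, and in the laminin, integrin and matrix list 1 of 21, ITGA2. ITGA2 encodes the collagen-binding integrin alpha 2, which was at 10.93, 9.39 and 9.15. KRT80 lost its call when arrays were centred on their medians or quantile normalized over the 3 arrays.

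Some mesenchymal genes were higher on the untreated Snai1ER array than on the untreated parental array. VIM, the intermediate filament vimentin, was at 5.69 on the untreated parental array and at 7.94 on the untreated Snai1ER array. With 4-OHT it was at 7.91 and 8.18, so the larger step lay between the lines. AXL, a receptor tyrosine kinase, showed the same order, with 7.02 in the parental array, 8.77 untreated, then 8.80 and 8.46. Fibronectin (FN1) was at 8.78, 9.22 and 9.19, and N-cadherin (CDH2) did not reach the level filter, at 4.69, 4.73 and 4.67.

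Of the 19 kept mesenchymal and contractile genes 3 (15.8%) were higher at both days and none lower. On day 4 alone 6 were higher and 1 was lower. The median of the list was 0.07 on day 2 and 0.24 on day 4. LOXL2, an enzyme that crosslinks collagen, was at 6.28 without 4-OHT, 7.40 on day 2 and 7.69 on day 4, above the highest parental array (5.99). ACTA2, smooth muscle actin, was at 7.10, 8.11 and 7.91, also above all parental arrays (highest 7.48). TPM2, a tropomyosin of actin filaments, was at 6.49, 7.27 and 7.69. The untreated value lay below the parental range of 6.72 to 8.44 and both 4-OHT values inside it. SPARC, a secreted matrix protein, was below the level filter over all 14 arrays and was picked after its values were seen: it was at 5.52, 7.07 and 8.40, a 2.92-fold and 7.34-fold difference, against 5.52 and 5.65 on the 4-OHT arrays labelled knockdown.

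**Figure D2:**
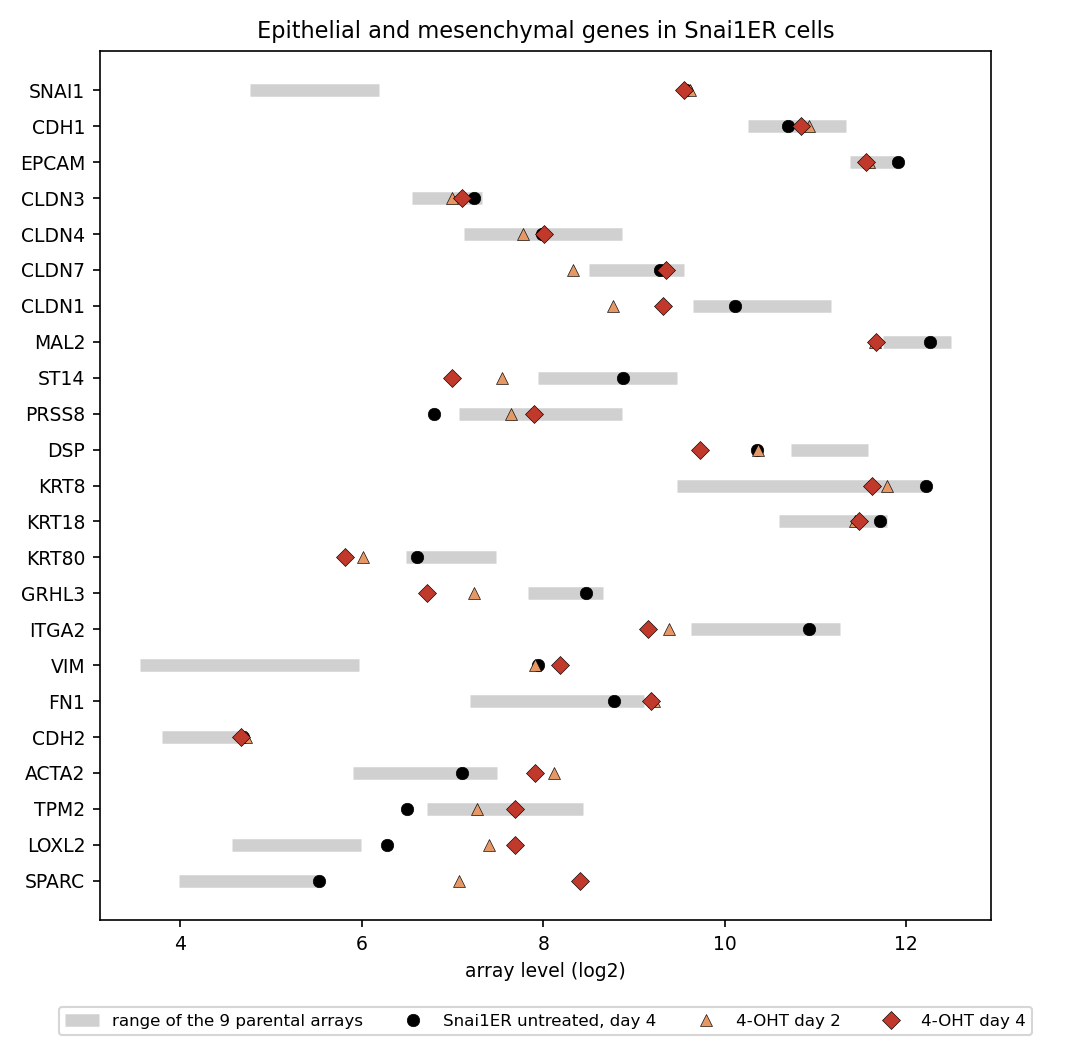
Array level (log2, horizontal axis) of epithelial and mesenchymal genes in Snai1ER cells without 4-OHT (black) and after 2 days (orange) or 4 days (red), with a grey bar for the range of the 9 parental arrays. SNAI1 and VIM lie right of the parental bar in all 3 Snai1ER arrays, CDH1 stays within it, and CLDN1, ST14, GRHL3 and ITGA2 lie left of it with 4-OHT.

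Of the transcription factors that drive EMT 9 were kept, SNAI1 included, and 1 (11.1%) was lower and none higher: ETS1, at 9.51 without 4-OHT and 8.82 and 8.83 with it, a difference of -0.69 and -0.68. SNAI3, TWIST1, TWIST2, TCF3 and SOX9 differed by at most 0.34 at either day. SOX4 was at 6.38, 6.91 and 6.25 and FOXC2 at 7.10, 6.93 and 7.39. ZEB1, ZEB2, SNAI2, TCF4, PRRX1 and GSC were below the level filter. Among these ZEB1 was at 6.09, 6.43 and 6.75.

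The 15 leading genes in each direction were those with the largest value of the smaller of the 2 differences. Among the lower ones, ANKRD22, a membrane protein with ankyrin repeats, was at 9.73 without 4-OHT, 7.42 on day 2 and 6.12 on day 4. That is 4.98-fold and 12.3-fold lower, with both values under the 8.73 of the lowest parental array. LRRC8B, a subunit of volume-regulated anion channels, was at 8.10, 6.05 and 5.85. Its day 4 value lies under the level needed to be kept, as in 42 of the 131 lower genes (32.1%). SPRR3, ZDHHC21, HDAC9 and SYT14 are among them, so the sizes of these differences are approximate.

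MACC1, a gene tied to MET signalling and metastasis in colon cancer, was at 10.44, 8.46 and 6.56, or 3.95-fold and 14.7-fold lower. The 9 parental arrays kept it between 10.24 and 11.12, so the day 4 value was far outside. ELF5, an epithelial ETS factor, was at 8.67, 7.04 and 6.60. CST6, a cysteine protease inhibitor, was at 8.57, 6.91 and 6.79, and SPRR3, a cornified envelope protein, at 7.67, 6.21 and 5.87.

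ZDHHC21, an enzyme that attaches palmitate to proteins, was at 7.63, 6.08 and 5.84, and HDAC9, a class II histone deacetylase, at 7.85, 6.34 and 5.80. SAA1, an acute phase protein, was at 9.72, 8.10 and 6.54. The parental array held SAA1 at 5.84, so the untreated Snai1ER array lay above it and the 4-OHT arrays lay nearer to it. Its near-identical neighbour SAA2 was at 9.30, 8.20 and 6.84, and the probes of both may share signal. SYT14 (8.87, 7.36 and 5.46, parental 5.64) and TNFRSF9 (7.29, 5.59 and 5.82, parental 5.96) were also above the parental array without 4-OHT. A high value on the untreated Snai1ER array makes a gene both higher than parental and lower on 4-OHT. The remaining genes of the leading 15 were COXFA4L3, TMEM14EP and SNORD45B, apart from ITGA2. In 13 of the 15 the difference was larger on day 4, and in 9 of the 15 both 4-OHT arrays lay below all 9 parental arrays.

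The 250 bases before the start were read for the E-box CACCTG and its reverse complement CAGGTG. Of the 254 higher genes, 212 had a promoter in the RefSeq table (GRCh38.p14), and 36 of these (17%) held the motif, against 1849 of 8908 kept genes with a promoter (20.8%). Of the 131 lower genes 84 (64.1%) were in the table, and 30 of these (35.7%) held the motif. A share was taken to describe its genes where at least 80% of them had a promoter, so the check is void for the lower genes, and nothing is read from it. Over all windows in RefSeq 17.5% held it. A match describes the letters, not a bound site. MACC1, ZDHHC21 and HDAC9 among the lower genes and CRABP2 among the higher ones are shown as leading genes that hold the motif, which is in capitals. SSBP2 and ASS1 among the leading higher genes and SPRR3 among the leading lower ones held it too and are not shown. HDAC9 has 5 starts in the RefSeq table, and the promoter shown is the first of them with the motif. MACC1 held 3 matches, whose first base lay 241, 214 and 59 bases before the start.

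MACC1 (lower, chr7:20217385-20217634, minus strand): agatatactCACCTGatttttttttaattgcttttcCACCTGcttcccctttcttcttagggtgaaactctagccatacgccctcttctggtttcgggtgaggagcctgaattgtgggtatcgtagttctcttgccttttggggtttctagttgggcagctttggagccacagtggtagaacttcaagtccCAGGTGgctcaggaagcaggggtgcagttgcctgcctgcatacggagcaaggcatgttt
ZDHHC21 (lower, chr9:14693433-14693682, minus strand): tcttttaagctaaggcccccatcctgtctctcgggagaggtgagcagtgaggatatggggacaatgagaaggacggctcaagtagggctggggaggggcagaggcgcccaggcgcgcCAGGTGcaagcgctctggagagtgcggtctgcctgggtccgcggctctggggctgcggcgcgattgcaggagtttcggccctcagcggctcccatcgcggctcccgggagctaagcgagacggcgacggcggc
HDAC9 (lower, chr7:18086575-18086824, plus strand): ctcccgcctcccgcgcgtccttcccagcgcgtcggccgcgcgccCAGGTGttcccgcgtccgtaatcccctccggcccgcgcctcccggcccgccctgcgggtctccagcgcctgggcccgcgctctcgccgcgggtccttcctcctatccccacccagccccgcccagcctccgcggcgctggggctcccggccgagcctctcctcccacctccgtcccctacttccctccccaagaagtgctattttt
CRABP2 (higher, chr1:156705785-156706034, minus strand): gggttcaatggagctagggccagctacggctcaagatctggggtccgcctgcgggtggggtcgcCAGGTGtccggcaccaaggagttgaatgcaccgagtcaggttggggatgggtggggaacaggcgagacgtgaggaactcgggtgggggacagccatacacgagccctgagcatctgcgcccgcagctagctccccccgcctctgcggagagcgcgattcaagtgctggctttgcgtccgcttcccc

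Among the 15 leading higher genes, IFITM1, an interferon-induced membrane protein that restricts viral entry, was at 5.31 without 4-OHT, 9.04 on day 2 and 10.43 on day 4, 13.2-fold and 34.7-fold higher. Its untreated value lies under the level needed to be kept, as in 33 of the 254 higher genes (13%), IFI44L and DDIT4 among them, so these folds are approximate. CRABP2, which carries retinoic acid to its nuclear receptors, was at 8.05, 10.22 and 10.19, so the 2 days were level. FOLR1, a folate receptor, was at 6.73, 8.84 and 9.93, with both 4-OHT values above all parental arrays (6.76 to 7.92). BCL6, a transcriptional repressor, was at 6.69, 8.17 and 8.23.

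All 15 leading genes were lower on the untreated Snai1ER array than on the untreated parental array. GABRA3, a GABA receptor subunit, was at 10.42 in the parental array, 6.83 in untreated Snai1ER cells and 8.23 and 8.24 on 4-OHT. Over all 254 higher genes, 140 (55.1%) were at least 1.5-fold lower on the untreated Snai1ER array than on the parental array and 7 at least 1.5-fold higher. For comparison, 8.11% of all kept genes were lower and 4.74% higher on that array than on the parental array. The untreated Snai1ER array enters both differences, so a low value on it makes a gene both lower than parental and higher on 4-OHT. Against the parental array, 50 of the 254 (19.7%) were 1.5-fold higher at both days, as were 3% of all kept genes.

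Of the 131 lower genes, 35 were at least 1.5-fold higher on the untreated Snai1ER array than on the parental array and 20 lower. Against the parental array, 70 of the 131 (53.4%) were 1.5-fold lower at both days, as were 4.61% of all kept genes. In 57 (43.5%) both 4-OHT arrays lay below all 9 parental arrays, compared with 3.86% of all kept genes. Without the 2 TGFb arrays of lower median it was 66 (50.4%), compared with 8.28%. In 73 of the 254 higher genes (28.7%) both lay above all 9, compared with 13.6% of all kept genes. The rule chose these genes by the same 4-OHT arrays, so these shares describe where the genes lie and their excess over all genes is not read as a result.

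**Figure D3:**
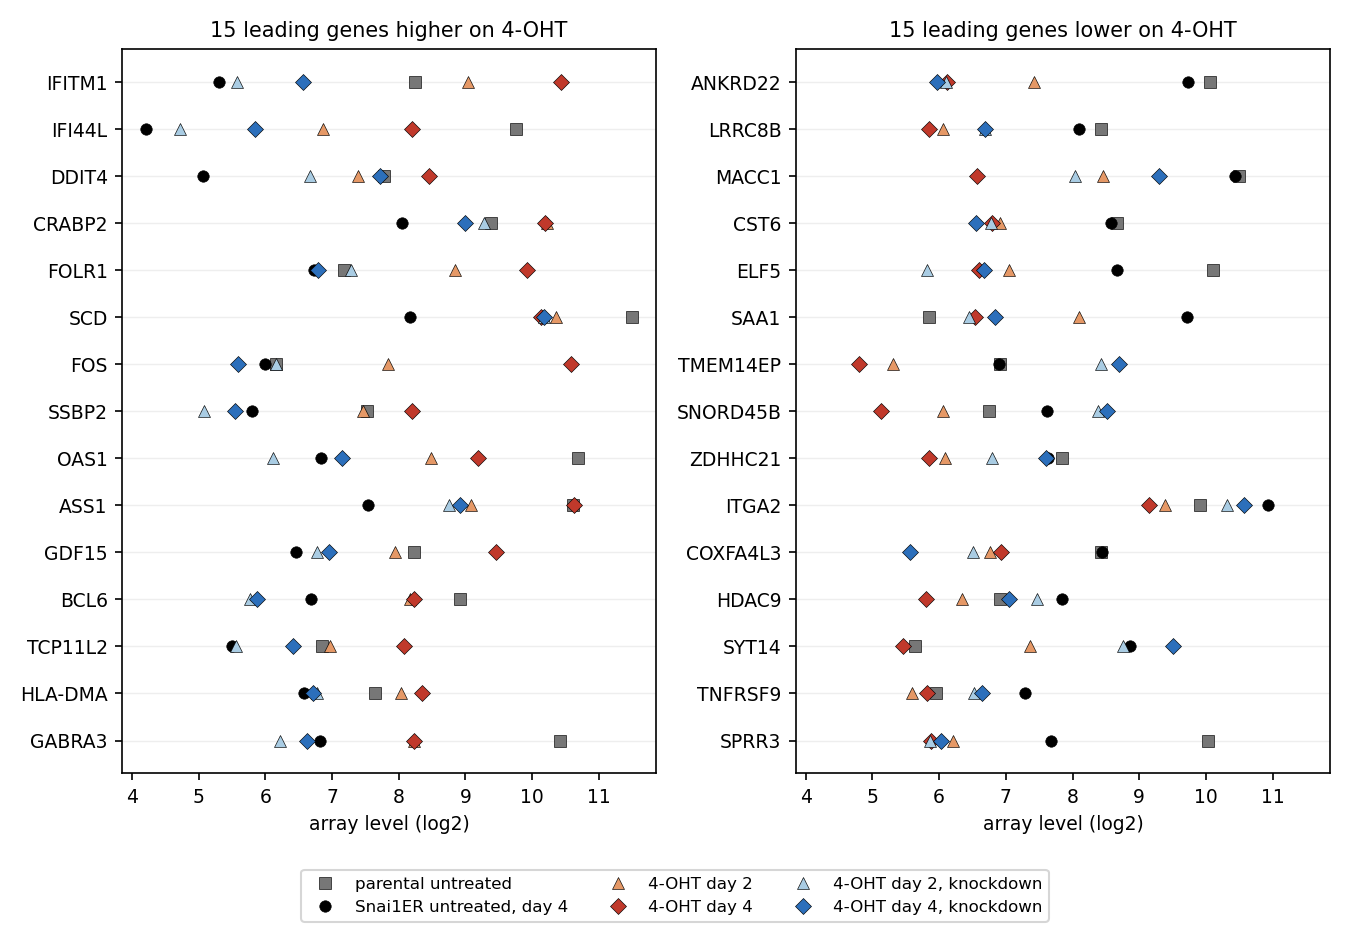
Array level (log2, horizontal axis) of the 15 leading genes higher (left) and lower (right) on 4-OHT, 1 symbol per array: parental untreated, Snai1ER untreated, 4-OHT day 2 and day 4 without and with the ANGPTL4 knockdown label. On the left the untreated Snai1ER array (black) lies below the parental one (grey) in all 15 genes, and on the right MACC1 is at 10.44 untreated and 6.56 on day 4.

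The highest medians of any list on both days were those of the integrated stress response, in which the factor ATF4 turns on amino acid synthesis, transport and stress genes. Of 29 kept members, 12 (41.4%) were higher at both days and none lower. On day 4 alone 26 of the 29 were higher. Their median difference was 0.48 on day 2 and 1.34 on day 4, against 0.03 and -0.01 over all kept genes. DDIT4, an mTORC1 inhibitor, was at 5.06, 7.39 and 8.45. DDIT3, the stress factor CHOP, was at 6.84, 8.03 and 10.61. NUPR1, a small stress-induced chromatin protein, was at 6.40, 7.51 and 10.34, a 2.16-fold and then 15.4-fold difference.

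GDF15, a stress-induced secreted factor, was at 6.46, 7.95 and 9.46, and CHAC1, an enzyme that degrades glutathione, at 5.96, 7.02 and 8.33. The transcript of ATF4 itself did not pass the rule, at 9.03, 9.24 and 9.64. All 12 members were further from the untreated array on day 4 than on day 2. In 10 of the 12 the untreated Snai1ER array was at least 1.5-fold below the parental one, and in 11 the day 4 array was at least 1.5-fold above it.

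Amino acid genes followed. Of 32 kept enzymes and transporters, 8 (25%) were higher at both days and 21 on day 4 alone, with medians of 0.32 and 0.78. ASS1, which makes argininosuccinate for arginine synthesis, was at 7.54, 9.08 and 10.63, 2.90-fold and 8.48-fold higher. PHGDH, which opens serine synthesis, was at 7.92, 9.16 and 10.15, and CTH, which makes cysteine, at 6.19, 7.24 and 8.36. The neutral amino acid carrier SLC1A4 was at 6.23, 6.93 and 8.25. FAH and BCKDHA, which break down tyrosine and branched-chain amino acids, were also higher, by 0.86 and 1.30 and by 0.65 and 1.52. Of the 20 aminoacyl-tRNA synthetases kept, AARS1 passed at both days, at 10.34, 10.93 and 11.44, and lost its call under quantile normalization over 14 arrays.

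The amino acid response element TGATGNAA (other strand TTNCATCA) is a site through which ATF4 acts. It was searched for after the values were seen. Of the 12 higher members 10 had a promoter, and 2 of these (20%) held it. Among kept genes with a promoter 2.27% held it, as did 3.14% of all windows. Members of the list that did not pass the rule were not counted apart. The share can thus belong to the list as a whole, and nothing is read from it. The stretches of CHAC1 and ATF3 around the element are shown for its letters, in capitals.

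CHAC1 (higher, chr15:40953232-40953299, plus strand): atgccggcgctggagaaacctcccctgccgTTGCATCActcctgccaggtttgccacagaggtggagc
ATF3 (higher, chr1:212565186-212565253, plus strand): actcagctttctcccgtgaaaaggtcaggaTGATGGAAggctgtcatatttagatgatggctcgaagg

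Interferon-stimulated genes, the antiviral effectors and sensors that type I interferon turns on, had the highest share past the rule of the 43 lists. Of 35 kept members 15 (42.9%) were higher at both days and none lower, with medians of 0.45 and 0.66. Differences of the 15 ran from 0.60 to 3.73 on day 2 and from 0.96 to 5.12 on day 4, and all 15 were larger on day 4. IFI44L was at 4.22, 6.87 and 8.21, and OAS1, which makes the activator of RNase L, at 6.84, 8.48 and 9.20. XAF1, a pro-apoptotic factor, was at 5.35, 6.43 and 8.47. UBE2L6, the enzyme that loads the ubiquitin-like ISG15, was at 7.34, 8.62 and 9.61, and ISG15 itself at 7.24, 7.83 and 8.87. IRF9 was at 6.68, 7.66 and 8.71.

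Other members did not pass. IFIT2 was at 7.09, 7.18 and 7.06, IRF7 at 7.30, 7.18 and 7.51, and OAS3 at 7.17, 7.46 and 7.43. In 14 of the 15 the untreated Snai1ER array was at least 1.5-fold below the parental one. On day 4 of 4-OHT, 7 were still at least 1.5-fold below the parental array and 4 were 1.5-fold above it. IFI44L, at 9.75 in the parental array, is one of the former. Levels of these genes also differed widely among the 9 parental arrays. IFI44L ranged from 4.44 to 10.24 there, OAS1 from 6.58 to 11.31 and XAF1 from 4.42 to 9.02. DDX60 ranged from 5.59 to 9.34 and UBE2L6 from 6.91 to 9.78. Both 4-OHT values of each of these genes lay inside its range. IFITM1 ranged from 4.42 to 9.13, with its day 2 value inside and its day 4 value above. IFITM1 and IFITM2 are related genes whose probes may share signal. The antigen processing list of MHC class I had 0 of 10 kept genes past the rule at both days. HLA-DMA, a class II peptide loading protein, was at 6.59, 8.04 and 8.36.

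The interferon element, searched as 2 GAAA half-sites with 2 bases between them (TTTC on the other strand), is bound by interferon regulatory factors. Its search was chosen after the values were seen. It stood in 10 of the 14 higher members with a promoter (71.4%). Among kept genes with a promoter 3.21% held it, as did 3.02% of all windows. The list is of genes that interferon turns on, so this excess can come with membership of the list alone. Members that did not pass the rule were not counted apart. Whether the element goes with passing the rule was therefore not tested, and nothing is read from the excess. The E-box was in 0 of the 14 higher members, compared with 20.8% of kept genes with a promoter. With the 50 bases after the start included, it was in 2 of the 14 (14.3%), compared with 23.9%. Nothing is read from so few genes. The stretches of IFITM1, IFI44L and IFIT1 are shown with the interferon element in capitals. IFI44L held it 164 and 73 bases before the start and IFIT1 116 and 103 bases before it. IFIT1, a sensor of viral RNA caps, was at 9.14, 10.05 and 10.19.

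IFITM1 (higher, chr11:313970-314039, plus strand): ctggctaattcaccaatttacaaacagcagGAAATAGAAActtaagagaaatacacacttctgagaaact
IFI44L (higher, chr1:78620254-78620414, plus strand): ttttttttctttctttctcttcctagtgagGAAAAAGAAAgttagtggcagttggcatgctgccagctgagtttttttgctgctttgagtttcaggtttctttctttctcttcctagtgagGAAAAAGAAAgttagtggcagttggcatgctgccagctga
IFIT1 (higher, chr10:89392477-89392559, plus strand): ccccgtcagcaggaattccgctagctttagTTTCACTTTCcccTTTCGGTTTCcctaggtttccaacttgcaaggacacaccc

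Lipid genes gave a smaller group. Of 24 kept fatty acid synthesis and storage genes 4 (16.7%) were higher at both days. On day 4 alone 5 were higher and 4 lower, and the medians of the list were 0.24 and 0.10. In all 4 genes higher at both days the untreated Snai1ER array was at least 1.5-fold below the parental one. SCD, the desaturase that makes monounsaturated fatty acids, was at 8.18, 10.36 and 10.14, 4.55-fold and 3.90-fold higher, while the parental array held it at 11.49. FADS1 and FADS2, desaturases of polyunsaturated fatty acids, were also higher. FADS1 was at 7.23 without 4-OHT and 2.32-fold and 3.42-fold higher with it, and FADS2 was at 5.99, 6.71 and 6.71. Of 24 cholesterol genes 2 (8.33%) were higher: INSIG1, which retains the SREBP factors, at 6.48, 7.64 and 7.35, and SREBF2, which encodes one of them, at 6.09, 7.01 and 6.93. Among 23 glycolysis and glucose uptake genes 3 (13%) were higher, PCK2, ALDOC and PDK2, of which the first is a mitochondrial enzyme of the ATF4 list too. Of 32 TCA cycle and respiratory chain genes 1 (3.12%) was higher, IDH2, at 7.19, 8.56 and 8.72.

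Stress and immediate early genes were further from the untreated array on day 4. Of 20 kept, 5 (25%) were higher at both days and 13 on day 4 alone, with medians of 0.14 and 0.72. FOS, a subunit of AP-1, was at 5.99, 7.85 and 10.58, which is 3.62-fold and 24.1-fold higher. DUSP1, a phosphatase of MAP kinases, was at 7.04, 8.44 and 10.47, and EGR1 at 8.93, 9.78 and 11.17. The cochaperone DNAJB1 was at 9.19, 9.83 and 11.43. HSPA6, a heat shock protein with little basal expression, was at 5.53, 6.12 and 8.56. Of the NRF2 and antioxidant list 4 of 34 (11.8%) were higher at both days and 14 on day 4 alone. HMOX1, the heme-degrading enzyme, sat at the threshold on day 2, at 9.37 against 8.78, and at 11.99 on day 4, and quantile normalization took its day 2 difference under the threshold.

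Endoplasmic reticulum chaperones and degradation genes were near the untreated array on day 2 (median 0.04) and above it on day 4 (0.76). 1 of 25 was higher at both days, HERPUD1, a component of ER-associated degradation, at 9.41, 10.12 and 12.03, and 18 were higher on day 4 alone, where 9.24% of all kept genes were. HSPA5, the chaperone BiP, was at 11.49, 11.63 and 12.60.

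Genes of cell division were level with the untreated array on day 2 and lower on day 4. Of 37 DNA replication genes 0 passed at both days and 19 were lower on day 4, compared with 11.5% of all kept genes, with medians of 0.09 and -0.60. Of 31 mitosis genes 0 passed at both days and 17 were lower on day 4, with medians of 0.03 and -0.60. MCM10, a replication initiation factor, was at 10.46, 10.56 and 9.29, and CCNE2, a cyclin of the G1 to S step, at 8.59, 8.61 and 7.21. The day 2 arrays of both genes were level with the untreated array. Of the CDK inhibitor and p53 target list 1 of 24 was higher at both days, CCNG2, at 7.80, 8.48 and 8.49. Since the untreated array is of day 4, the day 4 values share its day.

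**Figure D4:**
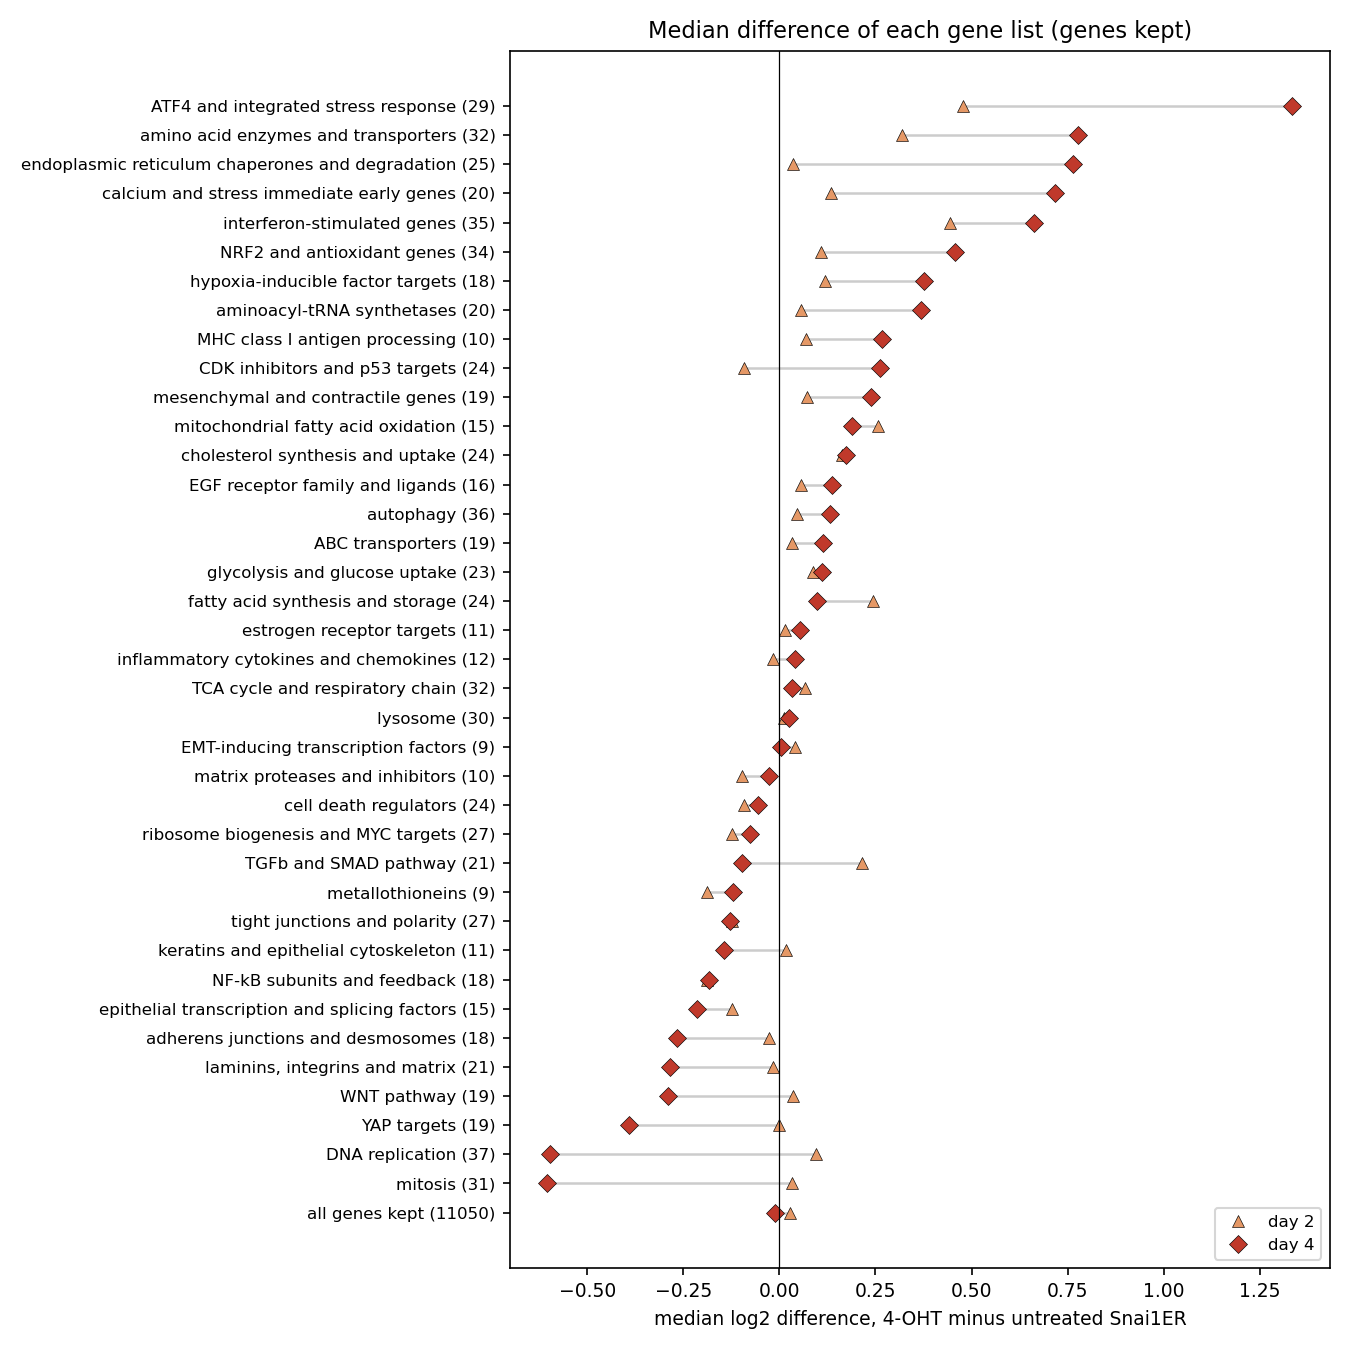
Median log2 difference from the untreated Snai1ER array of each gene list with at least 9 kept genes (their number in brackets), cell type markers left out, on day 2 (triangles) and day 4 (diamonds) of 4-OHT. The ATF4 list stands at 0.48 and 1.34, DNA replication at 0.09 and -0.60, and all kept genes at 0.03 and -0.01.

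ABC transporters, the family that includes the drug efflux pumps examined in the study, had a single member past the rule. Over all kept genes 3.48% passed it in either direction. Of 19 kept, 0 were higher and 1 (5.26%) was lower at both days: ABCA12, a lipid transporter of keratinocytes, at 7.93, 7.08 and 6.93, while the parental array held it at 10.99. The paper reports enriched transcripts of the pumps of multidrug resistance, among other ABC transporters, across its EMT models, the Snai1ER line included. That result came from repeated experiments. The paper also reports higher drug efflux in these models, and more pump protein on the cell surface under hypoxia and TGFb. On the single arrays analysed here the pumps it names, ABCB1, ABCC1 and ABCG2, did not pass the rule. ABCC1 was at 7.37, 7.71 and 7.53. ABCB1 (4.78, 4.70 and 4.73) and ABCG2 (5.71, 5.16 and 5.08) were below the level filter. Single arrays at such levels cannot test what the paper reports for these pumps, and nothing is read from them about it. ABCC3 was at 6.54, 6.85 and 7.67, and on day 4 alone 1 of the 19 was higher and 3 were lower.

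Several signalling genes were the only members of their lists past the rule. Over all kept genes 2.3% were higher and 1.19% lower. A single member therefore describes that gene and is not read as a result about its list. TNFAIP3, a brake on NF-kB, was at 8.70, 7.74 and 6.52, 1 of 18 kept genes of its list. TGFA, a ligand of the EGF receptor, was at 8.94, 7.98 and 7.28, 1 of 16. LEF1, a WNT pathway transcription factor, was at 7.16, 8.62 and 8.36, 1 of 19. LTBP1, which holds latent TGFb in the matrix, was at 7.89, 8.79 and 9.20, 1 of 21. LIF, a cytokine, was at 6.19, 5.38 and 5.49, and BIK, a pro-apoptotic BH3 protein, at 7.42, 6.68 and 6.70. In the autophagy list 1 of 36 was higher, WIPI1, and in the lysosome list 1 of 30, CTSH, at 7.42, 8.27 and 9.76. Of 11 estrogen receptor targets none passed at both days.

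A larger share of small RNA genes than of protein-coding genes was lower. Of 74 kept snoRNA genes 10 (13.5%) were lower and 1 higher, and of 32 miRNA genes 3 (9.38%) were lower and 0 higher, against 111 of 10547 protein-coding genes (1.05%). Probe sets of miRNA genes read the gene's locus and precursor, not the mature RNA. SNORD45B, a guide RNA of ribosomal RNA methylation, was at 7.62, 6.05 and 5.13. SNORD116-6 was at 10.28, 9.42 and 7.50 and SNORA3B at 8.76, 8.08 and 5.99. MIR21 was at 7.54, 6.69 and 6.69, MIR221 at 6.44, 5.48 and 5.38 and MIR181B1 at 6.64, 5.85 and 5.54. The 3 miRNA genes encode the mature RNAs below, with the seed (bases 2 to 8) in capitals; no seed is shared between them.

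hsa-miR-21-5p (MIR21, chr17:59841273-59841294, plus strand): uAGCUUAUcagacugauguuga
hsa-miR-221-3p (MIR221, chrX:45746180-45746202, minus strand): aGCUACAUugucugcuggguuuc
hsa-miR-181b-5p (MIR181B1, chr1:198858925-198858947, minus strand): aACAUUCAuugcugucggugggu
hsa-miR-181b-3p (MIR181B1, chr1:198858887-198858907, minus strand): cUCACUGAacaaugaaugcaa

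The 4-OHT arrays labelled with ANGPTL4 knockdown were also compared with the untreated Snai1ER array, so they share that array and hold any difference of their line too. By that comparison 207 of 11050 genes (1.87%) were higher and 537 (4.86%) lower at both days. Several of the leading lower genes were low there as well: ANKRD22 was at 6.11 and 5.97 on days 2 and 4, ELF5 at 5.82 and 6.67 and CST6 at 6.77 and 6.55. MACC1 was at 8.04 and 9.30, against 8.46 and 6.56 without knockdown. ITGA2 was at 10.32 and 10.58, against 9.39 and 9.15.

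Among the leading higher genes SCD stood at 10.17 and 10.18 with knockdown, level with the arrays without it. IFITM1 was at 5.57 and 6.57, 0.26 and 1.26 above its untreated level, and FOLR1 at 7.28 and 6.79, near 6.73. FOS was at 6.16 and 5.58 against 5.99. In the lists, 10 of 29 ATF4 genes and 8 of 32 amino acid genes were higher at both days with knockdown, compared with 12 and 8 without. For interferon-stimulated genes it was 0 of 35, with medians of -0.03 and 0.31, compared with 15 of 35 and medians of 0.45 and 0.66. No test of these differences was possible with single arrays.

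Genes lay close to the threshold on either side of it. TAOK3 (0.59 and 0.59) and GLDN (0.59 and 1.14) were just inside on the higher side, and PHF1 (0.58 and 1.09) and SLC25A1 (0.85 and 0.58) just outside. On the lower side PYROXD1 (-0.59 and -0.60) was just inside and GPRC5A (-0.58 and -0.96) just outside. Among the 7367 genes below the level filter, 84 (1.14%) were higher and 60 (0.814%) lower at both days by the same rule.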

How the data were processed

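RNA of each condition was hybridised to a GeneChip Human Gene 1.0 ST array after WT amplification and biotin labelling. The deposited log2 values are RMA summaries per probe set that the authors made in Partek (version not given in the sources used here), with 1 array per condition and 14 arrays in all. The 33297 probe sets were named through the platform annotation: 19460 have 1 symbol, 1754 several and 12083 are unnamed here. Symbols were updated through the gene ID for 19429, and probe sets of a gene were averaged, giving 18417 genes, of which 11050 had a mean level over all arrays at or above the 40th percentile (log2 5.90). A gene was called at 1.5-fold in the same direction on both days, with no test, since no condition has a replicate. Because 742 probe sets (2.23%) have equal values on 2 or more of the 3 arrays, some differences repeat. The array number limits the precision, and reads or depth do not apply. Named genes were SNAI1, ESR1, ANGPTL4, the 15 leading genes each way, up to 6 called members of each list, EMT factors and junction genes, 3 drug pumps, the largest day 4 shifts and genes next to the threshold; SPARC, AXL, SAA2, DSG2, AFDN, GRHL2, MCM10, CCNE2, HSPA5, ABCC3, ATF4, ISG15, IFIT1, IFIT2, IRF7, IRF9, OAS3, MIR21, MIR221 and MIR181B1 were picked after their values were seen. The members and lists were chosen with earlier results of these data known. Promoters (250 bases before each start) and mature miRNAs came from RefSeq, GRCh38.p14, with 8908 of 11050 kept genes matched. Python 3.11.15, numpy 2.4.6 and pandas 2.3.3 were used.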

Additional observations from a re-analysis of the deposited data

Results flagged for a closer look

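Of the 385 genes past the rule, 24 (6.23%) lay at least 1.5-fold the opposite way on both arrays labelled knockdown, all against the shared untreated Snai1ER array. Of the 254 higher genes 15 (5.91%) were lower there, near the 4.86% of all kept genes that were. Of the 131 lower genes 9 (6.87%) were higher there, compared with 1.87% of all kept genes. The 6 of the 24 that are among the named genes are given as mean log2 differences of days 2 and 4. The difference between the lines was not tested, and the line labelled knockdown has no untreated array. ANGPTL4 was below the level filter, so the knockdown could not be judged from it. AKR1C3, an aldo-keto reductase whose probes may share signal with its relatives, was 1.68 without and -2.86 with knockdown. HMOX1 was 1.90 without and -0.87 with it, BCL6 was 1.51 and -0.87, and CEACAM1, an epithelial adhesion protein, was 1.02 and -0.68. TMEM14EP, a pseudogene, was -1.85 without and 1.66 with knockdown, and SNORD45B was -2.02 and 0.83.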

How the results depend on the processing

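The day and the fold rule set the number of called genes. Against 254 higher and 131 lower genes, day 2 alone gave 424 and 200, day 4 alone 1021 and 1267, and a 2-fold rule 62 and 30. List members past the rule numbered 76, against 286 on day 4 alone and 27 at 2-fold. The median size of the mean difference of the 98 named genes that were called was 1.52, against 1.02 on day 2 and 1.85 on day 4. With the untreated parental array as reference, chosen after seeing the data, 332 genes were higher and 509 lower, with 50 and 70 shared with the main calls, counts that by construction also hold the difference between the lines. The other scalings, probe set choices and level filters kept both counts within 1.5 times: 215 to 338 higher and 108 to 191 lower. Centring each array on its median gave 320 and 111, with 254 and 111 shared with the main calls. Of 954 single-gene values under alternatives 831 moved by less than 0.29, the SD of mean differences of genes below the filter, and 123 moved more. Sign changes were counted only for the 98 called genes and numbered 0, an outcome that the calling rule fixes for each day alone. Genes that were not called could change sign, as did CLDN7, at -0.96 on day 2 and 0.06 on day 4. Of 946 counts of list members in a direction 790 stayed within 1.5 times and 156 did not. Counts of 0 that stayed at 0 are among the 790, so this tally overstates how stable the other counts are. Leaving the 2 TGFb arrays of lower median out of the parental range was chosen after seeing the data as well and gave 73 higher genes above it and 66 lower genes below it, against 73 and 57. With 1 array per condition, no array could be left out. Signal over background was not measured here: 33 of the 254 higher genes had an untreated value, and 21 of the 131 lower genes both 4-OHT values, under the level cut. In 42 of the 131 lower genes (32.1%) the day 4 value was under it. No paired analysis was possible because each condition has 1 array.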
